A study of Mus musculus with 6 samples.

Results

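The 10 genes described here encode growth signals that pass between neurons, glia and glioma cells, and all 10 were found by symbol among the 25755 genes measured in mouse optic nerve. They are the ligands Mdk (midkine), Ptn (pleiotrophin), Nlgn3 (neuroligin-3) and Bdnf (brain-derived neurotrophic factor), the receptors Alk, Ptprz1, Lrp1, Sdc3 and Ntrk2, and the protease Adam10. RNA of whole optic nerves was sequenced in bulk from 3 sham-operated mice (mice 1 to 3) and 3 mice with optic nerve crush (ON-CR, mice 4 to 6), all analysed at 3 months of age after surgery at 6 weeks of age. Every mouse, sham mice included, carried the genotype NF1flox/flox;hGFAP-Cre. The human GFAP promoter drives this Cre, which removes Nf1 from neuroglial progenitors and the cells that descend from them. Neurons whose cell bodies lie in the retina, immune cells and vessels are not the main target of this Cre, and the nerve was not sorted, so each value is a mixture over cell types. The sham operation was an incision with no crush, and crushes were bilateral. No mouse with an intact Nf1 gene was sequenced here, so the comparison is of crush against sham within the mutant genotype.

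Midkine and pleiotrophin are related heparin-binding growth factors that bind the receptor tyrosine phosphatase encoded by Ptprz1, the endocytic receptor encoded by Lrp1, the heparan sulfate proteoglycan syndecan-3 (Sdc3) and, as a debated partner, the receptor tyrosine kinase encoded by Alk. Neuroligin-3 is a synaptic adhesion protein, also made by oligodendrocyte precursors, whose ectodomain is released by the ADAM10 metalloprotease and acts as a mitogen on glioma cells. BDNF is released by active neurons and by some glia and binds TrkB, the product of Ntrk2, which astrocytes make mostly in a truncated form without the kinase. In optic glioma of Nf1-mutant mice, neuronal midkine is known to act on T cells, whose CCL4 leads microglia to make CCL5.

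The libraries held 17414091 to 23621006 estimated reads, with the 3 ON-CR libraries the shallowest. The values are normalized counts, that is, estimated gene counts divided by a factor for each library. A gene-level count does not check the Nf1 deletion, and Nf1 stood at 343 to 447 normalized counts in sham mice, against 380 to 438 after ON-CR. Sex-linked RNA differed between the groups. Xist was at 2.14 to 30.9 in sham mice, against 2708 to 6357 after ON-CR, whereas the Y-linked Ddx3y was at 1291 to 1645 in sham mice, against 976, 4.19 and 0 in ON-CR mice 4, 5 and 6. The library of ON-CR mouse 4 thus held both Xist and Y-linked RNA, so it stood apart from every other library. Whether it holds RNA of more than 1 mouse was not tested, and it is counted as 1 mouse, as its label has it. Without it 0 of the 10 genes were called by limma, with Bdnf at a log2 fold change of 1.28 (limma adjusted p = 0.0682) and Sdc3 at 0.30 (limma adjusted p = 0.346). Sex and surgery cannot be told apart for any gene here, the X-linked Nlgn3 included. Defining transcripts of oligodendrocytes and astrocytes were abundant in every library, with Mbp at 369255 or more and Gfap at 99186 or more. Neuronal marker genes, whose cells of origin lie outside the nerve, had a summed level of 1329 to 4315 in sham mice, against 1438, 9226 and 2645 in ON-CR mice 4, 5 and 6, so ON-CR mouse 5 stood apart in these.

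Each gene was tested with limma on log2(value + 1) over all 25755 genes, with Benjamini-Hochberg adjustment, and a gene was called at an adjusted p at or under 0.05. None of the 10 genes was called by limma (0 of 10), where 2.1% of all genes were, 0.971% higher and 1.13% lower after ON-CR. At an unadjusted p at or under 0.05 there were 2 of 10, Bdnf and Sdc3, against 15.6% of all genes. The same 2 genes were the ones whose sham and ON-CR values did not overlap, both higher after ON-CR, which held for 21.6% of all genes in either direction and 10.5% in this one. Of the 10, 7 had a fold change above 0 and 3 below, with a median of 0.080 on the log2 scale, beside a median of 0.028 over all genes. Midkine, the ligand that starts the T cell circuit, had a lower mean after crush and was not called, and the largest difference among the ligands was that of Bdnf. Depth did not limit these values to a few reads, since the lowest library held 32 estimated reads for Alk, 91 for Bdnf and at least 1257 for the other 8 genes.

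**Figure D1:**
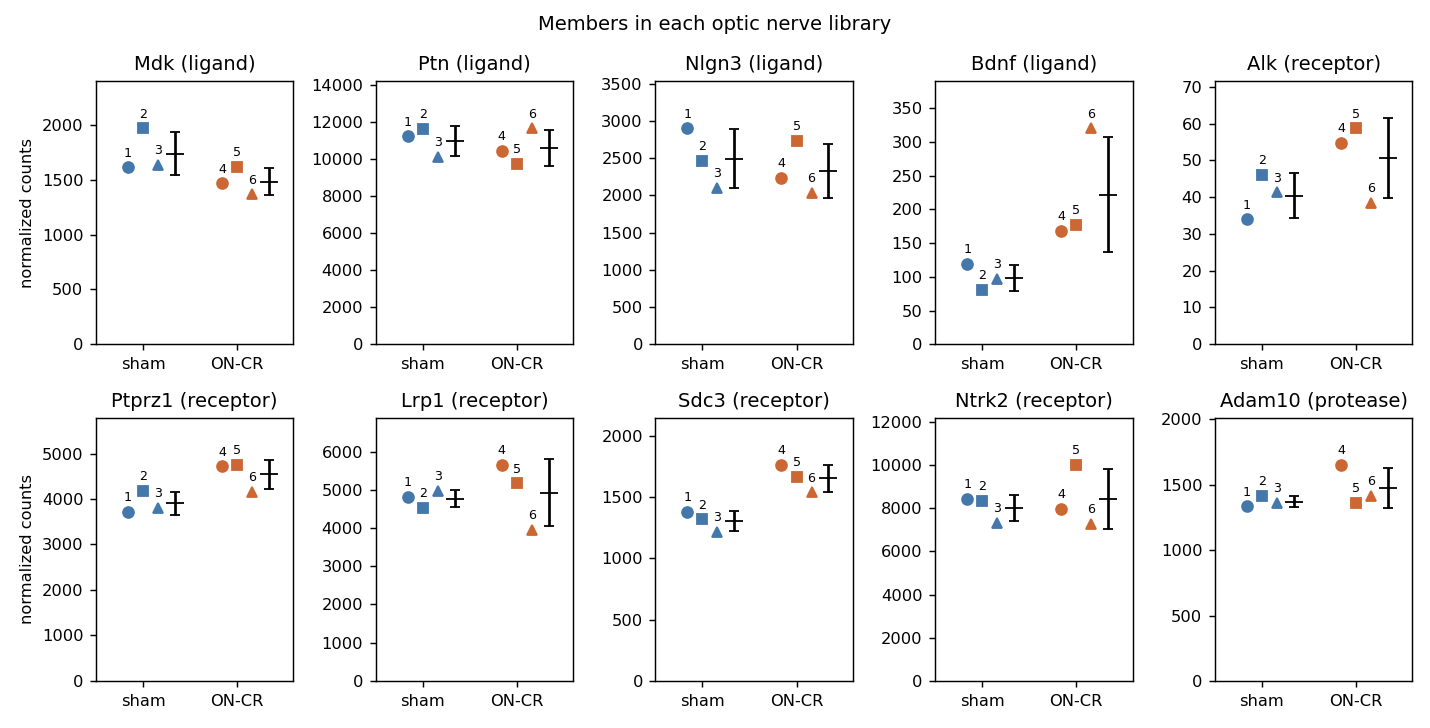
Normalized counts (y axis, from 0) of the 10 genes in each library, with sham mice 1 to 3 in blue and ON-CR mice 4 to 6 in orange, and the mean ± SD (n = 3) of each group in black. Bdnf and Sdc3 are the 2 panels in which the groups do not overlap.

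Mdk (ENSMUSG00000027239.14, chromosome 2 of GRCm38 from 91929805 to 91932297, minus strand) had 1613, 1967 and 1637 normalized counts in sham mice 1, 2 and 3. After ON-CR, mice 4, 5 and 6 had 1467, 1615 and 1365. ON-CR mouse 5 lay within the sham values, by a narrow margin above sham mouse 1, and the other ON-CR mice lay below them. The sham mean was 1739 ± 198 and the ON-CR mean 1483 ± 126 (SD over 3 mice). ON-CR minus sham came to a log2 difference of -0.23 (standard error 0.12, limma adjusted p = 0.413), with a 95% interval from -0.50 to 0.047. Expressed as a fold, the interval ran from 0.706 to 1.03.

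Ptn (ENSMUSG00000029838.11, chromosome 6 from 36714929 to 36810220, minus strand), the ligand of highest level, had 11198, 11609 and 10078 normalized counts in the sham mice. The ON-CR mice had 10424, 9730 and 11630. The groups overlapped almost completely, with the highest and the lowest of the 6 values both from ON-CR mice. Its log2 fold change stood at -0.050 (95% interval -0.31 to 0.21, limma adjusted p = 0.881), and it was above 0 when each library was scaled to the same total (0.078) or when ON-CR mouse 5 was left out (0.0090).

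Nlgn3 (ENSMUSG00000031302.16, chromosome X from 101299168 to 101325963, plus strand) had 2901, 2470 and 2106 normalized counts in sham mice 1, 2 and 3. After ON-CR, mice 4, 5 and 6 had 2237, 2733 and 2030. Sham mouse 1 and ON-CR mouse 5 were high, and these were also the libraries with the highest summed level of neuronal markers, at 4315 and 9226. The part of that RNA in the Nlgn3 values was not tested. This gave a log2 fold change of -0.094 (95% interval -0.43 to 0.24, limma adjusted p = 0.821), with the sign turned by scaling to the same total (0.034) and by leaving out sham mouse 1 (0.022) or ON-CR mouse 6 (0.00095). Gm21986 shares exons with Nlgn3 on the same strand, and it was at 3.48 or less in sham mice, against 4.21 to 39.8 after ON-CR.

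Bdnf (ENSMUSG00000048482.14, chromosome 2 from 109674700 to 109727007, plus strand) had 119, 80.6 and 96.7 normalized counts in sham mice 1, 2 and 3. After ON-CR, mice 4, 5 and 6 had 169, 177 and 320. Every ON-CR library was above every sham library, and ON-CR mouse 6 was far above mice 4 and 5. The means were 98.7 ± 19.2 and 222 ± 85.2 (SD over 3 mice), a ratio of 2.25. The difference in log2 units was 1.11 (standard error 0.27, 95% interval 0.51 to 1.72), with an unadjusted p of 0.00213 and an adjusted p of 0.0724 by limma, which missed the threshold. The exact permutation p was 0.1 (two-sided, n = 3 against 3), the smallest that this design allows. The gene ranked 756 of 25755 by p. Of the 14 other settings tried, 4 gave an adjusted p under the threshold, from 0.0449 to 0.0475. Without ON-CR mouse 6 the log2 fold change was 0.82 and the adjusted p 0.261 by limma, and without sham mouse 2 the adjusted p was 0.284. Without ON-CR mouse 5 it was 0.0463. Gm45346 overlaps Bdnf exons on the other strand, and whether counting used strand is not given in the sources used here, so the reads of such a pair may not be separated.

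Marker lists were set beside the Bdnf values. The summed level of 7 T cell markers was 216, 250 and 580 in sham mice, against 471, 212 and 1354 after ON-CR, highest in ON-CR mouse 6, the library with the most Bdnf. ON-CR mouse 5 had the lowest sum of all libraries but more Bdnf (177) than any sham mouse. Sham mouse 3 had the next highest sum after ON-CR mouse 6, with Bdnf at 96.7. The defining markers Cd3e and Cd3d were above 0 in every library. The neuronal list was highest in ON-CR mouse 5, which had little more Bdnf than ON-CR mouse 4, at 177 against 169, although its summed neuronal level was 9226 against 1438. The Schwann cell list summed to 8266 to 10206 in sham mice, against 6226 to 9061 after ON-CR, with 3 genes higher and 3 lower. Among the higher was Egr2, its 1 called gene (20.2, 14.2 and 24.4 in sham mice, against 88.7, 52.4 and 116 after ON-CR, limma adjusted p = 0.0250), and among the lower were Pmp22 and Sox10 (log2 fold changes -0.24 and -0.50, limma adjusted p = 0.484 and 0.201). The summed level of 8 microglia markers was 18730, 16495 and 14046 in sham mice, against 26636, 18014 and 26789 after ON-CR. ON-CR mouse 6, with the most Bdnf, had the highest microglia sum. ON-CR mouse 5 had a lower microglia sum than sham mouse 1 but more Bdnf. The part of any of these cells in the Bdnf values was not tested. In bulk RNA, more cells of a type and more RNA per cell cannot be told apart.

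Bdnf has several start sites, each with its own promoter, and gene-level counts do not say which of them was used. RefSeq promoter windows of GRCm38.p6 were found for 8 of the 10 genes, 7 windows for Bdnf and 1 for each of the others. They were searched over the 250 bases before each start, on both strands, for the core of the cAMP response element (TGACG, contained in the full element TGACGTCA), the AP-1 motif TGANTCA and the E-box CANNTG. The core was in 1 of the 7 Bdnf windows and in the windows of Sdc3, Alk and Adam10, where 17.8% of all 32851 windows hold it. The windows are placed by RefSeq starts, and by the GENCODE models behind the positions given here all 250 bases of the Alk window and 41 of the Ptn window lie in exons of the gene. The full element was in none of them, where 1.55% hold it. AP-1 was in 1 Bdnf window (6.75% of all windows hold it), and an E-box was in 6 of the 7 Bdnf windows (66.2% of all windows). The Bdnf and Sdc3 windows with the core are shown because these are the 2 genes whose groups did not overlap. The first is chr2:109692186-109692435 and the second chr4:130792287-130792536, both on the plus strand, read 5′ to 3′ and ending at the base before the start. Capitals mark the core, which lies on the opposite strand and therefore reads CGTCA.
Bdnf: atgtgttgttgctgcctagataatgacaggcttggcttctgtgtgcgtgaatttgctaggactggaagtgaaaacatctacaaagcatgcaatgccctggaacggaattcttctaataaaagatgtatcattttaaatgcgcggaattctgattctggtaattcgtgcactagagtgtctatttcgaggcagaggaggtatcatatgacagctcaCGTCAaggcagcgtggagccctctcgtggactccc
Sdc3: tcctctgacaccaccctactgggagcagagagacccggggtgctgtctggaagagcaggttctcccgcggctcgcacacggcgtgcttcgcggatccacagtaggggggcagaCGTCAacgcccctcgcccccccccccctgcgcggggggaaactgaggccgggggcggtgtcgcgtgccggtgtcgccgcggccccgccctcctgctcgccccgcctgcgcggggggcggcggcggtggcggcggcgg
In both windows the core stands alone, with no second copy. A match of letters is a description of the sequence and was not tested against the values.

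Among the receptors, Sdc3 (ENSMUSG00000025743.14, chromosome 4 from 130792537 to 130826319, plus strand) came closest to a call. It had 1375, 1317 and 1212 normalized counts in sham mice, against 1759, 1662 and 1537 after ON-CR. All ON-CR values were above all sham values, with little spread within either group. The means were 1302 ± 82.6 and 1653 ± 111 (SD over 3 mice), a ratio of 1.27. On the log2 scale the difference was 0.34 (standard error 0.11, 95% interval 0.095 to 0.59, limma adjusted p = 0.166). Scaling each library to the same total gave a fold change of 0.47 and an adjusted p of 0.0475 by limma, but it also moved the median of all genes up by 0.12, and relative to the new median the change was 0.32. The antisense genes Gm12970 and Gm26716 overlap its exons, and Gm26716 was at 0.060 or less in sham mice, against 5.71 to 16.9 after ON-CR.

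Ptprz1 (ENSMUSG00000068748.7, chromosome 6 from 22875502 to 23052916), a phosphatase of astrocytes and oligodendrocyte precursors, had 3725, 4184 and 3805 normalized counts in sham mice, against 4715, 4744 and 4164 after ON-CR. Only ON-CR mouse 6 fell within the sham values, just under sham mouse 2. ON-CR minus sham came to a log2 difference of 0.22 (95% interval -0.022 to 0.46, limma adjusted p = 0.368).

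Lrp1 (ENSMUSG00000040249.15, chromosome 10 from 127538161 to 127621148) had 4810, 4535 and 4967 normalized counts in sham mice, against 5646, 5170 and 3951 after ON-CR. The ON-CR mice lay on both sides of the sham mice, with mouse 6 lowest of all 6. Its log2 fold change stood at 0.030 (95% interval -0.28 to 0.34, limma adjusted p = 0.943), and it was below 0 without ON-CR mouse 4 (-0.077), ON-CR mouse 5 (-0.013) or sham mouse 2 (-0.0060).

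Alk (ENSMUSG00000055471.7, chromosome 17 from 71868972 to 72604627) was the least abundant of the genes, with 34, 46.0 and 41.3 normalized counts in sham mice, against 54.8, 58.7 and 38.4 after ON-CR. Its values came from 32 to 56 estimated reads, and ON-CR mouse 6 lay among the sham mice. This gave a log2 fold change of 0.31 with a wide 95% interval from -0.37 to 0.98 (limma adjusted p = 0.685).

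Ntrk2 (ENSMUSG00000055254.15, chromosome 13 from 58806569 to 59133970), the receptor of BDNF, had 8406, 8329 and 7315 normalized counts in sham mice, against 7969, 9987 and 7286 after ON-CR. ON-CR mouse 5 was highest and ON-CR mouse 6 lowest of all 6. The difference in log2 units was 0.060 (95% interval -0.24 to 0.36, limma adjusted p = 0.881), and it was -0.070 without ON-CR mouse 5 and -0.0050 without sham mouse 3. The full-length and truncated forms of TrkB share this gene and are not separated in the values.

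Adam10 (ENSMUSG00000054693.14, chromosome 9 from 70678997 to 70780229), the sheddase of neuroligin-3, had 1334, 1416 and 1361 normalized counts in sham mice, against 1649, 1358 and 1415 after ON-CR. Mouse 4 was high, and the other ON-CR mice lay within the sham values. On the log2 scale the difference was 0.10 (95% interval -0.16 to 0.36, limma adjusted p = 0.734), of which 0.017 was left without ON-CR mouse 4.

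**Figure D2:**
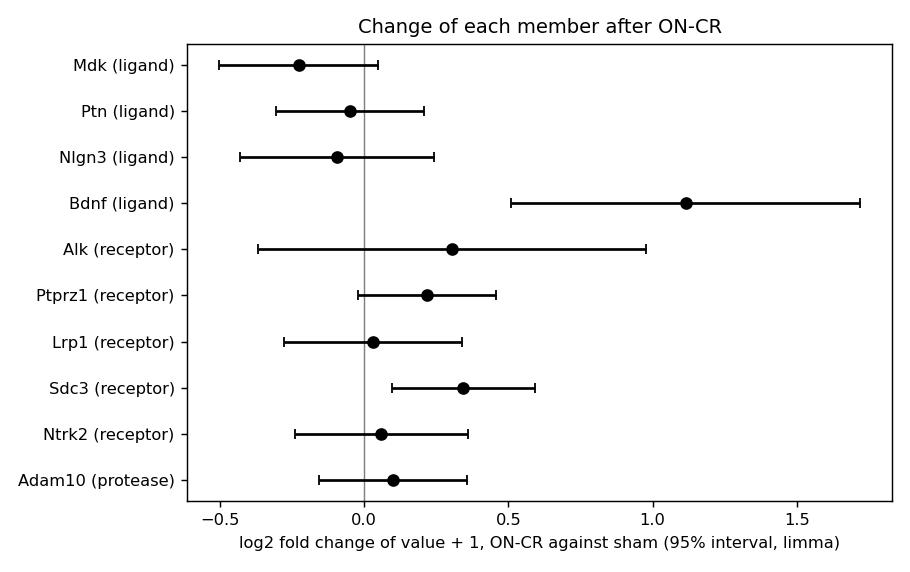
Log2 fold change of value + 1 (x axis, ON-CR against sham, points) with its 95% interval from limma (bars, n = 3 mice each) for the 10 genes by role (y axis). Only the intervals of Bdnf (0.51 to 1.72) and Sdc3 (0.095 to 0.59) lie wholly above 0, before adjustment over all genes.

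Levels of different genes were compared per kilobase (kb) of exon, with the union of annotated exons as the length, which lowers the value of genes with long alternative exons such as Ntrk2. In sham mice Ptn was highest at 3193 ± 231 normalized counts per kb, followed by Mdk at 1313 ± 150 and Ntrk2 at 416 ± 31.6 (SD over 3 mice). Ptn lay at the percentile 99 and Mdk at 97.2 of all genes by this measure. Adam10 (279 ± 8.49), Ptprz1 (274 ± 17.2), Lrp1 (269 ± 12.4), Nlgn3 (269 ± 42.9) and Sdc3 (217 ± 13.8) formed a chain in which each overlapped its neighbour over the 3 mice. Bdnf (15.9 ± 3.09) and Alk (5.22 ± 0.785) were far lower, and did not overlap each other or Sdc3. After ON-CR the order was the same for the 3 highest and the 2 lowest, with Bdnf at 35.7 ± 13.7 and Alk at 6.53 ± 1.39 per kb (SD over 3 mice). The 5 genes between them again overlapped their neighbours.

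**Figure D3:**
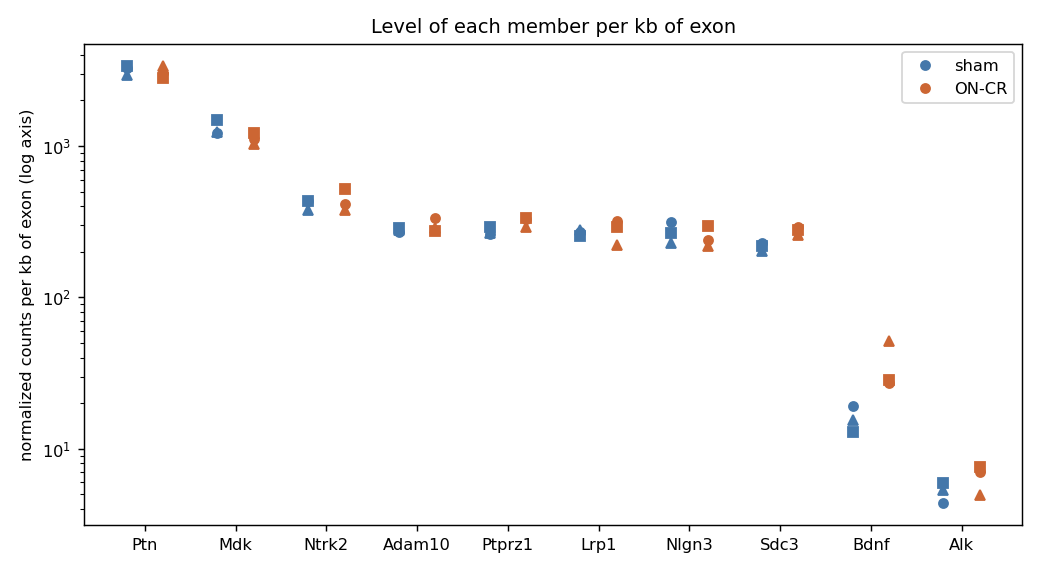
Normalized counts per kb of exon (y axis, log scale) of the 10 genes in each library, ordered by the sham mean (x axis), with sham mice in blue and ON-CR mice in orange (circle, square and triangle: mice 1, 2 and 3 or 4, 5 and 6). Ptn and Mdk stand at or above 1031, 6 genes lie between 202 and 518, and Bdnf and Alk lie at or below 51.5.

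Genes that work with the 10 were taken from 5 lists, and 5 of their genes were called over all genes tested, where the shares over all genes were 2.1% called and 15.6% at an unadjusted p at or under 0.05. Of 24 further binding partners of midkine and pleiotrophin in the table, 1 was called higher (0.971% of all genes were) and 1 lower (1.13%), and the list's median log2 fold change was 0.13. Itga6, a laminin-binding integrin subunit, rose from 698 ± 97.2 to 1088 ± 88.8 normalized counts (SD over 3 mice), a log2 fold change of 0.65 (limma adjusted p = 0.0439). Its call was lost without sham mouse 1, 2 or 3 or ON-CR mouse 4 or 6 (limma adjusted p = 0.142, 0.178, 0.0670, 0.116 and 0.205), and with a pseudocount of 0.1 (limma adjusted p = 0.0515). Itgb3, the beta subunit of the vitronectin receptor, fell from 192 ± 17.5 to 92.3 ± 14.6 (SD over 3 mice), a log2 fold change of -1.05 (limma adjusted p = 0.0287). Without sham mouse 1, 2 or 3 or ON-CR mouse 6 its adjusted p was 0.0860, 0.173, 0.0992 and 0.123 by limma.

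Of 16 partners of ADAM10 and related proteases, 1 was called higher and 1 lower, with a median of -0.052, and 11 had a fold change below 0. Tspan15, a tetraspanin that binds ADAM10 and directs it to its substrates, had 2211, 2496 and 2042 normalized counts in sham mice. In ON-CR mice it had 1318, 886 and 724, all below the sham mice. ON-CR minus sham came to a log2 difference of -1.24 (standard error 0.20, limma adjusted p = 0.0118), and the adjusted p was 0.0634 without sham mouse 1, 0.0899 without sham mouse 2 and 0.0881 without ON-CR mouse 6. Timp1, an inhibitor of metalloproteases that also acts on ADAM10, had 166, 135 and 165 normalized counts in sham mice. In ON-CR mice it had 520, 433 and 566, so the groups were far apart. Its log2 fold change was 1.70 (standard error 0.17, limma adjusted p = 0.00150), and it was called in all 14 other settings tried. Adam10 itself was not called, while this partner and this inhibitor were. Timp3, in the same list and at a higher level than Timp1, was not called. It was at 11783 ± 1136 normalized counts in sham mice, against 11372 ± 825 after ON-CR (SD over 3 mice). Its log2 fold change was -0.050 (limma adjusted p = 0.885). The summed level of 10 markers of mature oligodendrocytes moved with Tspan15, and was 1293650 to 1848600 in sham mice, against 631361 to 748270 after ON-CR, with 7 of the 10 called lower. The part of oligodendrocyte RNA in the fall of Tspan15 was not tested.

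Of 15 neuroligin and neurexin genes and their partners, 0 were called by limma, and 2 had an unadjusted p at or under 0.05, beside 15.6% of all genes. These were Lrrtm2, a neurexin ligand (log2 fold change 0.41, limma adjusted p = 0.301), and Nrxn3, a neurexin (0.81, limma adjusted p = 0.301). Nrxn3 was highest in ON-CR mouse 5 at 2218 normalized counts and next in sham mouse 1 at 1221, the libraries with the most neuronal marker RNA. Of 16 neurotrophin genes 0 were called by limma, with 4 at an unadjusted p at or under 0.05, beside the same 15.6%. Sort1, a sorting receptor for proBDNF, was at 2074, 2250 and 2181 in sham mice, against 1900, 1600 and 1548 after ON-CR (log2 fold change -0.37, limma adjusted p = 0.150). Shc1, an adaptor of tyrosine kinase receptors, had a log2 fold change of -0.42 (limma adjusted p = 0.175).

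In the list for the circuit from midkine to CCL5, 1 of 6 genes was called. Ccl4 had 12.7, 11.5 and 19.7 normalized counts in sham mice, against 396, 324 and 575 after ON-CR (limma adjusted p = 0.000136). Mdk, at the head of the circuit, was not called, and its interval in the reported fit reached at most 1.03-fold. That bound is for the reported fit, and over the 14 other settings the log2 fold change of Mdk ran from -0.29 to -0.099. The midkine of this circuit is neuronal, and neuronal cells of origin lie outside the nerve, so its level in neurons was not tested. Ccl5 at the end of the circuit was at 195, 185 and 617 in sham mice, against 342, 148 and 1444 after ON-CR. Its ON-CR mice lay both below and above the sham mice (log2 fold change 0.57, limma adjusted p = 0.761). By qPCR in optic nerves of this genotype and age, the study reported no change of Ccl4 and a rise of Ccl5 after ON-CR. The cause of the difference from the values here was not tested. The circuit of this list was described by the study for optic glioma that forms without injury. After ON-CR, it reported that depleting T cells left Ccl5 RNA unchanged. For injury it described another route, from neuronal glutamate to oligodendrocyte IL-1β and then to microglial CCL5. Both mice with high Ccl5, sham mouse 3 and ON-CR mouse 6, were also those with the highest T cell marker sums, 580 and 1354. For Ccl4, sham mouse 3 had 19.7, whereas ON-CR mouse 5, with the lowest T cell sum of all libraries (212), had 324. Within each group the highest Ccl4 value was in the mouse with the highest T cell sum. Which cells held the Ccl4 RNA was not tested.

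**Figure D4:**
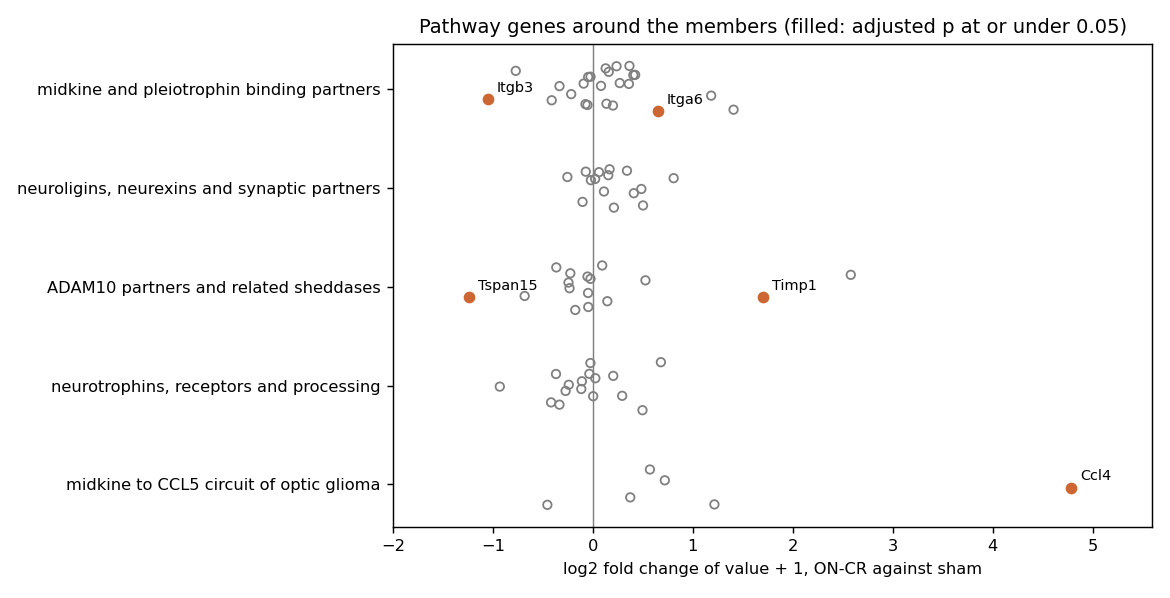
Log2 fold change of value + 1 (x axis, ON-CR against sham) of each gene in the 5 lists (y axis, spread vertically for legibility), filled where the adjusted p by limma was at or under 0.05. The 5 filled points are Itgb3, Itga6, Tspan15, Timp1 and Ccl4.

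Neuroligin-3, syndecan-3 and PTPRZ1 are products of oligodendrocyte precursors or astrocytes, so the markers of these cells were set beside them. The summed level of 9 precursor markers was 9019 to 10040 in sham mice, against 8264 to 9840 after ON-CR, and the groups overlapped. Within the list Sox6 and Lhfpl3 were called higher (limma adjusted p = 0.0355 and 0.0393), and the defining genes Pdgfra and Cspg4 had log2 fold changes of -0.29 and 0.17. The summed level of 10 astrocyte markers was 231829 to 281217 in sham mice, against 310061 to 338977 after ON-CR, without overlap. Without Gfap the groups overlapped, since the other 9 summed to 132643 to 159224 in sham mice, against 136020 to 153596 after ON-CR, a split chosen after the data were seen. The list's median log2 fold change was 0.070, with 6 higher and 4 lower, and its 1 called gene, S100b, was lower (16604 ± 2208 to 9855 ± 749, SD over 3 mice, limma adjusted p = 0.0185). The part of astrocyte RNA in the Sdc3 values was not tested. The summed level of 8 microglia markers was 14046 to 18730 in sham mice, against 18014 to 26789 after ON-CR, with overlap. Of the 8, 6 were higher, among them Aif1 and Trem2, which were called, and 2 were lower, P2ry12 and Tmem119 (log2 fold changes -0.35 and -0.27, limma adjusted p = 0.364 and 0.351). For 6 endothelial markers the sums were 3165 to 3869 and 2920 to 3717, and for 7 fibroblast markers 386897 to 429385 and 297222 to 390695. Most of the fibroblast sum was Ptgds alone, at 368605 to 408347 in sham mice, against 285928 to 373320 after ON-CR. The retinal ganglion cell list (922 to 1471 and 954 to 2964), the photoreceptor list (53.1 to 105 and 76.5 to 90.2) and the skeletal muscle list (74.7 to 250 and 86.3 to 142) overlapped between the groups.

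The libraries in which Mdk, Ptn and Nlgn3 were high or low were shared with other genes. Over the 6 libraries, on log2(value + 1) and among 14435 other genes with a mean of at least 50, Sugp1, Agpat1 and Psd2 were most like Mdk (Pearson r = 0.996, 0.994 and 0.989). Mrpl12, Tmem223 and Churc1 were most like Ptn (r = 0.989, 0.986 and 0.985), and Tdrkh, Ncald and Ipo4 most like Nlgn3 (r = 0.993, 0.991 and 0.989). An r of at least 0.95 was reached by 43 genes for Mdk, 30 for Ptn and 26 for Nlgn3. With 6 points that share library and depth, so high an r is a description only.

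**Figure D5:**
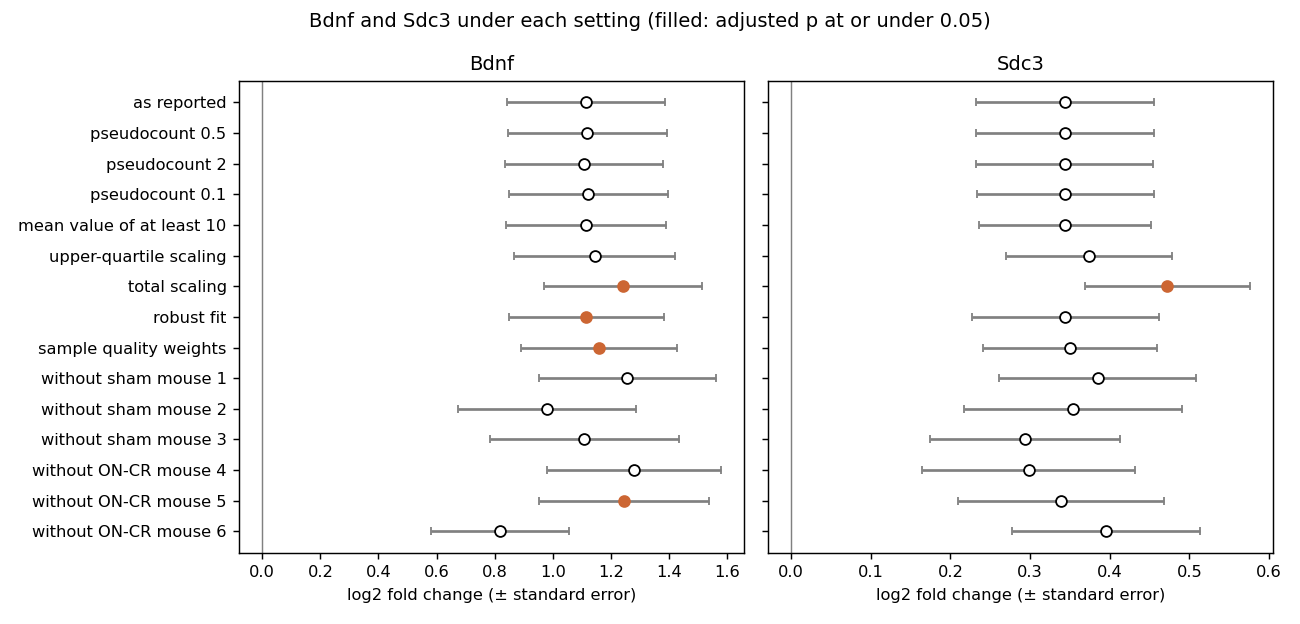
Log2 fold change (x axis, points, with the standard error as bars) of Bdnf and Sdc3 as reported and in 14 other settings (y axis), filled where the adjusted p by limma was at or under 0.05. Bdnf is filled in 4 settings and Sdc3 in 1, and all points lie above 0.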

How the data were processed

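Alignment and counting were done by the authors on an Illumina DRAGEN server against Ensembl models (mm10), followed by median normalization in Partek Flow 10.0. The values they deposited are a normalized signal per gene and library, estimated counts divided by 1 factor per library. Dividing each library by its most frequent value near 1 read gave whole reads (within 0.02) for 66.9% to 69.5% of genes. For the other genes whole reads were not recovered, so no count model was run. The count test named in the study's methods was therefore not repeated. Estimated reads served only to state depth.

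Mice were grouped by the sample labels and all 6 were used. The test was limma (3.58.1, under R 4.3.3) applied to log2(value + 1), its prior variance following the mean level, and p was adjusted by Benjamini-Hochberg across 25755 genes. It was checked on simulated data. A pseudocount of 1 understates changes of low genes. Intervals are 95%. The labels name 1 mouse per library, and 3 against 3 allow no exact permutation p below 0.1. Positions and exon lengths are from GENCODE annotation of GRCm38 and were matched by symbol for 97.2% of genes. The annotation release may differ from that of the authors.

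Genes and lists were chosen with earlier results of these data known, and no list was tested as a set. Named were the 10 genes, every called gene of the pathway lists or, where a list had none, the 2 with the lowest adjusted p, the defining genes of marker lists where needed, the 3 genes most like each of Mdk, Ptn and Nlgn3, and Xist, Ddx3y and Nf1. Egr2, Sox10, Sox6, Lhfpl3, S100b, Aif1, Trem2, Tmem119, Ptgds, Ccl5, Timp3 and the genes overlapping the 10 were named after their values were seen. Alternatives were other pseudocounts, a filter on low values, upper-quartile and total scaling, a robust fit, sample quality weights and leaving out each mouse. Alkal1, Pou4f2, Prph2 and Myh2 were not analysed here, and some list genes are not reported here.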

Additional observations from a re-analysis of the deposited data

How the results depend on the processing

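None of the 10 genes was called in the reported fit, and 10 of the 14 other settings also called none. Scaling to the same total called 2 (Bdnf and Sdc3), and a robust fit and sample quality weights called 1 each (Bdnf). Leaving out each mouse in turn called 0 to 1 (Bdnf, without ON-CR mouse 5). Bdnf had a log2 fold change of 1.24 under total scaling, 1.11 in the robust fit and 1.16 with quality weights, and of 0.82 to 1.28 with a mouse left out. Sdc3 had 0.47 under total scaling. Fold changes near 0 turned sign. Under total scaling that of Ptn was 0.078 and that of Nlgn3 0.034, and with a mouse left out they ranged from -0.12 to 0.0090 for Ptn, from -0.21 to 0.022 for Nlgn3, from -0.077 to 0.18 for Lrp1 and from -0.070 to 0.16 for Ntrk2. Of 140 values of the 10 genes over the settings, 125 kept direction and side of the threshold, 5 passed it and 10 changed sign. Over all genes, 540 were called (250 higher, 290 lower), total scaling gave 421 higher and 195 lower, and leaving out a mouse gave 67 (without ON-CR mouse 6) to 854 (without ON-CR mouse 5), with 192, 123 and 258 without sham mouse 1, 2 or 3. Of the list genes 5 were called, and 2 to 6 with a mouse left out. The cause was not tested. No paired analysis was possible because the mice of the groups share no numbers. With 3 mice in a group, fold changes within the intervals given could not be told from the spread between mice.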
